A study of Mus musculus with 4 samples.

Results

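A set of 10 listed macrophage genes, Mrc1, Cd163, Arg1, Nos2, Spp1, Trem2, Gpnmb, Folr2, Lyve1 and Pf4, were followed in myeloid cells of mouse prostate tumor grafts and of subcutaneous adipose tissue (SAT). These are 10 of the 31053 genes of the deposited single-cell count matrices. They were chosen by name as markers of macrophage polarization (the activation state that signals from the tissue impose) and of tissue residency. A cell was counted as myeloid when it held at least 1 unique molecular identifier (UMI, 1 counted RNA molecule) of Lyz2, the myeloid lysozyme, or of C1qa, a complement chain made mainly by macrophages. This gate took 2095 of 8986 cells with at least 200 detected genes.

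The 4 libraries, 1 per group, came from FVB mice (written VFB in the labels) on chow that carried subcutaneous MycCaP tumors, grafts of a prostate cancer line derived from HiMyc mice, so the cancer cells of both tumor groups carry the Myc transgene of that line, which an androgen-driven probasin promoter expresses, and come from a single cell line. One tumor and 1 SAT library were from mice given PBS, the vehicle, and 1 tumor and 1 SAT library from mice given D-CAN, a peptide that homes to adipose stromal cells joined to an amphipathic sequence that kills the cells it enters. SAT was the inguinal stromal vascular fraction, the cells left after adipocytes are removed, while tumors were dissociated whole. Whether a library pooled mice, and the age of the mice, are not given in the sources used here. With 1 library per group no difference between tissues or treatments could be tested, and mouse, library and condition cannot be told apart. Intervals below are exact 95% intervals that cover counting error only.

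Macrophages settle in tissues before and after birth and take on programs set by the place. Those lying along vessels and in connective tissue typically carry the mannose receptor Mrc1 (CD206), the scavenger receptor Cd163, the hyaluronan receptor Lyve1 and the folate receptor Folr2. Monocyte-derived macrophages in tumors or in lipid-laden tissue often make Spp1, Trem2 and Gpnmb. Arg1 and Nos2 compete for arginine and have long served as opposite signs of alternative and inflammatory activation.

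The gate did not take equal populations. It held 1136 cells of tumor PBS, 603 of tumor D-CAN, 225 of SAT PBS and 131 of SAT D-CAN, at medians of 2360, 3519, 1339 and 3714 UMIs per cell. Gated cells were 41.1% and 40.6% of the kept cells in the tumors but 7.92% and 6.91% in SAT. All 8 macrophage markers looked for (Adgre1, Csf1r, Mertk, Fcgr1, Cd68, C1qb, C1qc, Cd14) had UMIs in each library, yet cells with 2 or more of them were 47.3% and 55.2% of the gate in the tumors and 24.9% and 26.0% in SAT. The label of macrophages was therefore met by only part of the gate. Between 25.5% and 54.2% of gated cells held 2 or more markers of an epithelial, T, B, endothelial or fibroblast list, and these cells held 55.6% to 65.6% of the gated UMIs. Epithelial markers in the tumor gates were nearly all Cldn3 and Krt8, with Krt18 and Cldn7 at 0 in both. Neutrophil markers (S100a8, S100a9 and 4 others) summed to 638 and 213 CPM (UMIs of a gene scaled to counts per 1000000 of the gate) in the tumor gates but 6329 and 15689 CPM in SAT. Monocyte markers were at 269 and 343 against 1727 and 1508 CPM and dendritic markers at 11.2 and 13.7 against 217 and 286 CPM. The part of these cells in the differences between gates was not tested. Each result is therefore followed, where its direction or size turns on it, in the cells with C1qa (664, 347, 69 and 24 cells) and in the cells with at most 1 marker of each other list (789, 449, 123 and 60 cells). Those lists hold no neutrophil markers, which stood at 1845, 523, 15610 and 34350 CPM in the last set. Macrophage markers summed to 3877, 3729, 3284 and 1314 CPM there, so this set too differed in make-up between libraries. Library pairs shared 0 to 2 cell barcodes, and 1 barcode was shared by gated cells.

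The promoters of 4 genes are shown here, since the comparison of tissues turns on Mrc1 and Folr2, which were higher in SAT, and on Spp1 and Trem2, which were higher in tumor. RefSeq windows on GRCm38.p6 were found for 7 of 10 genes (9 windows), none of them for Arg1, Nos2 or Lyve1. Each line gives the 250 bases before a start site, 5′ to 3′ on the gene's own strand. Capitals mark the PU box, GAGGAA or its reverse TTCCTC, the core bound by the myeloid factor PU.1. Mrc1 is shown for chr2:14229164-14229413 (plus strand), Folr2 for chr7:101857191-101857440 (minus strand), Spp1 for chr5:104434861-104435110 (plus strand) and Trem2 for chr17:48346151-48346400 (plus strand).
Mrc1: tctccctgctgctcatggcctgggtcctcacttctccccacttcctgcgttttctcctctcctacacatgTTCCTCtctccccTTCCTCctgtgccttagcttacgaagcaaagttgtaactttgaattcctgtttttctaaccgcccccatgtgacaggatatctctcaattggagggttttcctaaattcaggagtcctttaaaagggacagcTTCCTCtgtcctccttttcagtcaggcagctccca
Folr2: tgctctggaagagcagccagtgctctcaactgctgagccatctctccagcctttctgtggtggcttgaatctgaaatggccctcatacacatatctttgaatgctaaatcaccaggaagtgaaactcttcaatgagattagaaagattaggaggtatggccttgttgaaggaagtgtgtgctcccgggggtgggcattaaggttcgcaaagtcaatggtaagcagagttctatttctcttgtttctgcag
Spp1: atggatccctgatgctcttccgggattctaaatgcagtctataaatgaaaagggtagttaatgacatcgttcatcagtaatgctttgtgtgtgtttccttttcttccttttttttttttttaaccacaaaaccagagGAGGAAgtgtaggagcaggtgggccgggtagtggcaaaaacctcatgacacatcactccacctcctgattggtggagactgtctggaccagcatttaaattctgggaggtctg
Trem2: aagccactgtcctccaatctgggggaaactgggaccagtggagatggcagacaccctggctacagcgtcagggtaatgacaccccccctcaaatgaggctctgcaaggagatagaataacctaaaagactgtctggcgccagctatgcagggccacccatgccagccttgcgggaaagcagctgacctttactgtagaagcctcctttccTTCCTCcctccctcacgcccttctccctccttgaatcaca
The PU box occurred 3 times in the Mrc1 window and 1 time each in those of Spp1, Trem2 and Pf4, and it was not found in either Folr2 window, in the second Spp1 window or in those of Cd163 and Gpnmb. It is a common word, present in 23.3% of 32851 mouse windows of this length. The letters of an AP-1 site (TGANTCA, 6.75% of windows) stood before Trem2 and the second Folr2 start. Neither word was shared by Mrc1 and Folr2 alone or by Spp1 and Trem2 alone.

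Mrc1, the mannose receptor, was lower in CPM in tumor than in SAT myeloid cells under both treatments. Its UMIs numbered 266 in tumor PBS (40.7 CPM, interval 36.0 to 45.9), 253 in tumor D-CAN (46.8 CPM), 121 in SAT PBS (171 CPM) and 108 in SAT D-CAN (136 CPM). The intervals of the tumors and of SAT did not overlap. The tumor over SAT log2 ratio was -2.07 (-2.38 to -1.75) with PBS and -1.54 (-1.87 to -1.20) with D-CAN. In C1qa cells it was -2.48 and -2.74, so the difference was as large without the Lyz2 cells that lacked C1qa. In cells with at most 1 marker of each other list the PBS ratio was -1.60, but the D-CAN ratio was -0.08 (-0.54 to 0.45). Of the 108 Mrc1 UMIs of SAT D-CAN, 66 lay in cells with 2 or more markers of another lineage. Shares of gated cells with a Mrc1 UMI gave another order with D-CAN, at 19.1% in tumor and 10.7% in SAT. With PBS they were 13.6% and 13.8%. At an even depth of 1000 UMIs per cell they were 55 of 539 and 9 of 124 cells with D-CAN, and 67 of 933 and 18 of 144 with PBS. Among unthinned C1qa cells 27.4% held Mrc1 in tumor and 54.2% in SAT with D-CAN, and 20.6% and 40.6% with PBS. At 1000 UMIs per cell these were 41 of 309 and 9 of 23 cells with D-CAN. With PBS they were 61 of 528 and 15 of 46.

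Folr2, a folate receptor of resident macrophages, ran beside Mrc1. It stood at 28.8 CPM in tumor PBS (188 UMIs), 40.7 in tumor D-CAN (220 UMIs), 119 in SAT PBS (84 UMIs) and 99.2 in SAT D-CAN (79 UMIs), again with no overlap of the intervals between tissues. The log2 ratio of tumor over SAT was -2.05 (-2.42 to -1.65) with PBS and -1.29 (-1.66 to -0.90) with D-CAN, and -2.52 and -2.42 in C1qa cells. The D-CAN value rested on few cells. Without the cell of each library that held most Folr2 it was -0.76, and in cells with at most 1 marker of each other list it was 0.02 (-0.51 to 0.62). By unthinned share of gated cells Folr2 was likewise not lower in tumor with D-CAN, at 16.1% in tumor and 7.63% in SAT. With PBS the shares were 9.24% and 10.7%. At 1000 UMIs per cell they were 47 of 539 and 4 of 124 with D-CAN. With PBS they were 54 of 933 and 13 of 144. Among unthinned C1qa cells 24.2% held Folr2 in tumor and 37.5% (18.8% to 59.4%) in SAT with D-CAN, and 14.5% and 33.3% with PBS. At 1000 UMIs these were 42 of 309 and 4 of 23 cells with D-CAN. With PBS they were 52 of 528 and 13 of 46. The SAT D-CAN interval holds the tumor share, so no direction was read from the shares of C1qa cells with D-CAN.

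Lyve1, the hyaluronan receptor of perivascular macrophages and of lymphatic vessels, was scarce. It had 8 and 5 UMIs in the 2 tumor gates (1.22 and 0.924 CPM) and 12 and 19 in the SAT gates (16.9 and 23.9 CPM), for tumor over SAT log2 ratios of -3.76 (-5.29 to -2.38) and -4.59 (-6.47 to -3.22). In SAT every one of these UMIs lay in a C1qa cell, 4 cells with PBS and 5 with D-CAN. Of the 19 UMIs of SAT D-CAN, 14 lay in cells with markers of another lineage, and without those cells the 5 UMIs in tumor and 5 in SAT were too few for a call. No gated cell of any library held 2 of the lymphatic endothelial markers Prox1, Pdpn and Flt4, and Prox1 was at 0 in both tumor gates.

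Cd163, the hemoglobin scavenger receptor, was at single-digit UMIs in 3 libraries and higher in SAT D-CAN. It had 5 UMIs in tumor PBS (0.765 CPM), 7 in tumor D-CAN (1.29 CPM), 5 in SAT PBS (7.06 CPM) and 25 in SAT D-CAN (31.4 CPM, 20.3 to 46.4). With D-CAN the tumor over SAT log2 ratio was -4.53 (-6.05 to -3.35), while with PBS the 10 UMIs were too few for a call. The 5 UMIs of SAT PBS were all in 1 cell. The 25 of SAT D-CAN were in 7 cells, of which the top 2 held 52.0%, and 17 of the 25 lay in cells with markers of another lineage.

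Pf4, platelet factor 4, a chemokine of megakaryocytes that resident macrophages also make, was higher or lower in tumor depending on treatment and on the cells counted. Its CPM was 118 in tumor PBS (768 UMIs), 291 in tumor D-CAN (1572 UMIs), 227 in SAT PBS (161 UMIs) and 148 in SAT D-CAN (118 UMIs). The lowest and the highest level were thus both in tumor. The tumor over SAT log2 ratio was -0.96 (-1.20 to -0.70) with PBS and 0.97 (0.70 to 1.25) with D-CAN. In C1qa cells both were below 0, at -1.84 and -0.54 (-0.81 to -0.25). In cells with at most 1 marker of each other list they were -0.71 and 2.24 (1.85 to 2.68), and 67 of the 118 Pf4 UMIs of SAT D-CAN lay in cells with 2 or more markers of another lineage. In SAT 99.4% and 100% of gated Pf4 UMIs were in C1qa cells, against 66.9% and 67.3% in the tumors. The markers of platelets (Ppbp, Itga2b, Gp9, Gp1bb, Gp6) summed to at most 41 UMIs in a gate, Gp6 was at 0 in all 4, and no gated cell held 2 of them.

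**Figure D1:**
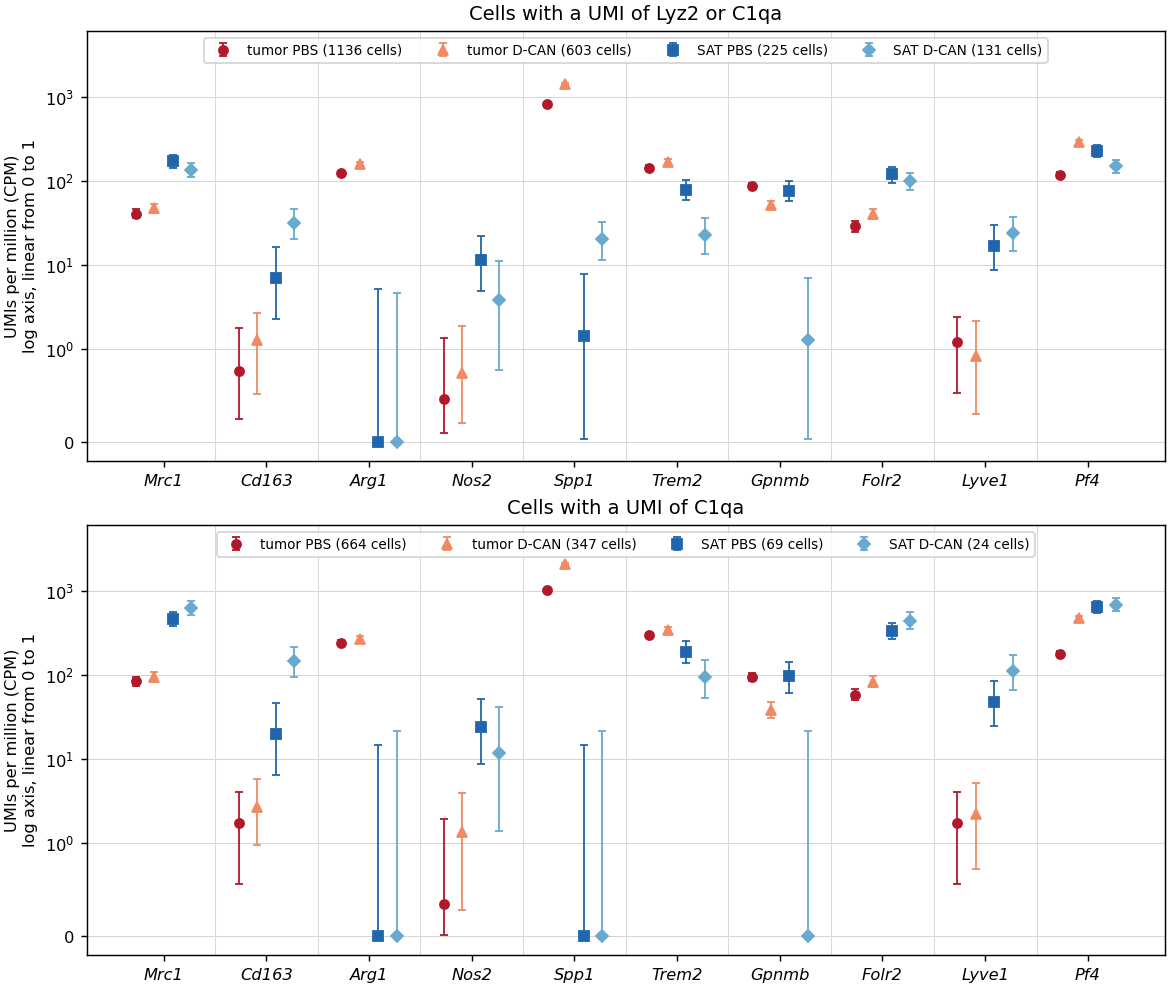
Level of each gene in CPM (log axis, linear from 0 to 1) in the 4 libraries, over all gated cells (top) and over gated cells with C1qa (bottom); bars are exact 95% Poisson intervals for counting error. Mrc1 and Folr2 of SAT lie above both tumors in either panel, Arg1 and Spp1 lie far below them, and Pf4 of tumor D-CAN moves from the highest level in the top panel to below both SAT libraries in the bottom panel.

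Arg1, the enzyme that turns arginine into ornithine, was a gene of the tumors. It had 805 UMIs in tumor PBS (123 CPM, 115 to 132) and 857 in tumor D-CAN (158 CPM, 148 to 169), and none in the gated cells of either SAT library. Set against a floor of 3 UMIs in the SAT library, Arg1 was 29.1-fold higher in tumor with PBS and 42.0-fold higher with D-CAN (log2 4.86 and 5.39). The exact lower limits of its log2 ratio were somewhat lower, at 4.56 and 5.09. At an even depth of 1000 UMIs per cell it was seen in 12.9% of gated cells of tumor PBS and 13.7% of tumor D-CAN (15.9% and 20.2% unthinned), against 0 of 626 and 1 of 315 epithelial cells outside the gate, whose median depths were 10976 and 17508 UMIs. The 0 of 144 and 0 of 124 gated SAT cells at that depth, by a floor of 3 cells, allow shares of cells with an Arg1 UMI of up to 2.08% and 2.42%, which does not limit the cells that express it. In all kept cells SAT held 2 Arg1 UMIs per library, all of them outside the gate.

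Nos2, the inducible nitric oxide synthase, could not be read in this gate. It had 3, 4, 8 and 3 UMIs in the gates of tumor PBS, tumor D-CAN, SAT PBS and SAT D-CAN. These were 3 of 17, 4 of 13, 8 of 34 and 3 of 25 Nos2 UMIs of the kept cells, so most lay outside the gate. Endothelial cells outside the gate held 12, 9, 24 and 22 of them, at 24.9 to 61.0 CPM. At these counts Nos2 could not be set against Arg1.

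Other genes that handle arginine were taken from a list. Of 12 listed, 10 had at least 20 UMIs in each tissue contrast, and 4 were past 2-fold higher in tumor and 1 lower, under PBS (19.4% and 24.4% of all genes) and under D-CAN (22.7% and 22.5%) alike. Srm, spermidine synthase, was at 195 and 200 CPM in the tumors and 12.7 and 7.54 CPM in SAT (log2 3.86 and 4.61). Slc7a2, an arginine transporter, stood at log2 1.48 and 2.39, on 2 UMIs and 1 UMI in SAT. Gch1, which makes the cofactor of nitric oxide synthases, was at -1.82 and -1.58. The median of the list was 0.86 and 0.35, against -0.11 and -0.02 over all genes. In cells with at most 1 marker of each other list, 2 of 10 were higher and 1 lower under each treatment (19.0% and 14.2% of genes with PBS, 23.6% and 14.0% with D-CAN). Srm stood there at 2.58 and 3.86 and Gch1 at -1.08 and -0.67.

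Spp1, osteopontin, a secreted matrix glycoprotein, was the most abundant of the 10 in tumor and among the scarcest in gated SAT. It had 5398 UMIs in tumor PBS (826 CPM), 7627 in tumor D-CAN (1410 CPM), 1 in SAT PBS (1.41 CPM) and 16 in SAT D-CAN (20.1 CPM). In the tumors 2430 of the 5398 and 3052 of the 7627 UMIs lay in cells with 2 or more markers of another lineage. The log2 ratio of tumor over SAT was 8.61 (6.71 to 14.50) with PBS and 6.09 (5.43 to 6.94) with D-CAN. In cells with at most 1 marker of each other list it was 7.98 and 5.49. None of the SAT UMIs lay in a C1qa cell. Against the floor of 3 UMIs, Spp1 in C1qa cells was 85.4-fold higher in tumor with PBS and 120-fold higher with D-CAN (log2 6.42 and 6.90). The exact lower limits were 6.12 and 6.60. Among C1qa cells with at most 1 marker of each other list the values against this floor were 62.1-fold and 44.2-fold.

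Spp1 was not confined to the gate in these tumors, where 41.8% and 37.6% of its UMIs were in the gate, against 96.0% to 99.4% for Mrc1, Arg1, Trem2, Folr2 and Pf4. Fibroblast cells outside the gate, 116 and 84 cells with at least 2 of Col1a1, Col1a2, Col3a1, Dcn and Pdgfra, held Spp1 at 5001 and 12771 CPM. Epithelial cells outside it (630 and 319) held it at 421 and 479 CPM. At 1000 UMIs per cell Spp1 was seen in 32.9% and 34.9% of gated cells, beside 21.2% and 25.1% of those epithelial cells. Without thinning the order turned, with 49.6% and 59.0% of gated cells against 59.5% and 67.4% of the deeper epithelial cells. At 1000 UMIs per cell the same epithelial cells showed Trem2, Mrc1 and Folr2 in 0 of 626 and 0 of 315. Unthinned, Trem2 was in 8 of 630 and 3 of 319 of them, Mrc1 in 5 and 3 and Folr2 in 4 and 2.

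Trem2, a lipid-sensing receptor of macrophages, was higher in tumor, by a margin that differed between treatments. It had 935 UMIs in tumor PBS (143 CPM), 913 in tumor D-CAN (169 CPM), 55 in SAT PBS (77.7 CPM) and 18 in SAT D-CAN (22.6 CPM). The tumors were close to each other and the SAT libraries were not. Tumor over SAT was 0.87 (0.49 to 1.30) on the log2 scale with PBS and 2.86 (2.23 to 3.66) with D-CAN. One cell of SAT PBS, of 13552 UMIs, held 30 of the 55 Trem2 UMIs, and without the top cell of each library the PBS ratio was 1.94 and the D-CAN ratio 4.27. In C1qa cells the ratios were 0.64 and 1.84. Cells with at most 1 marker of each other list gave 1.13 (0.73 to 1.57) and 4.97 (3.77 to 7.01), the latter on 4 UMIs in SAT. Of the 18 Trem2 UMIs of SAT D-CAN, 14 lay in cells with markers of another lineage.

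Gpnmb, a glycoprotein of lysosome-rich macrophages and of pigment cells, was found in epithelial cells outside the gate as well as in it. It stood at 86.3 CPM in tumor PBS (564 UMIs), 51.4 in tumor D-CAN (278 UMIs), 76.3 in SAT PBS (54 UMIs) and 1.26 in SAT D-CAN (1 UMI). Tumor over SAT was 0.17 (-0.23 to 0.61) with PBS and 4.77 (2.86 to 10.66) with D-CAN, where the SAT value is a single UMI. The gate held 40.4% and 33.6% of tumor Gpnmb, and within it 307 of 564 and 166 of 278 UMIs lay in cells with markers of another lineage. Epithelial cells outside the gate had 69.5 and 37.4 CPM. At 1000 UMIs per cell Gpnmb was seen in 5.36% and 3.15% of gated cells and in 6.39% and 2.22% of those epithelial cells (15.6% and 13.6% against 25.2% and 22.3% unthinned). Gated cells with at most 1 marker of each other list held 114 CPM of Gpnmb in tumor PBS, 51.3 in tumor D-CAN, 164 in SAT PBS and 0 in SAT D-CAN. The PBS ratio thus changed sign with the cells taken. It was -0.53 (-0.97 to -0.04) in these cells and -0.04 (-0.62 to 0.65) in C1qa cells. In C1qa cells with at most 1 such marker it was -0.83 (-1.44 to -0.12).

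**Figure D2:**
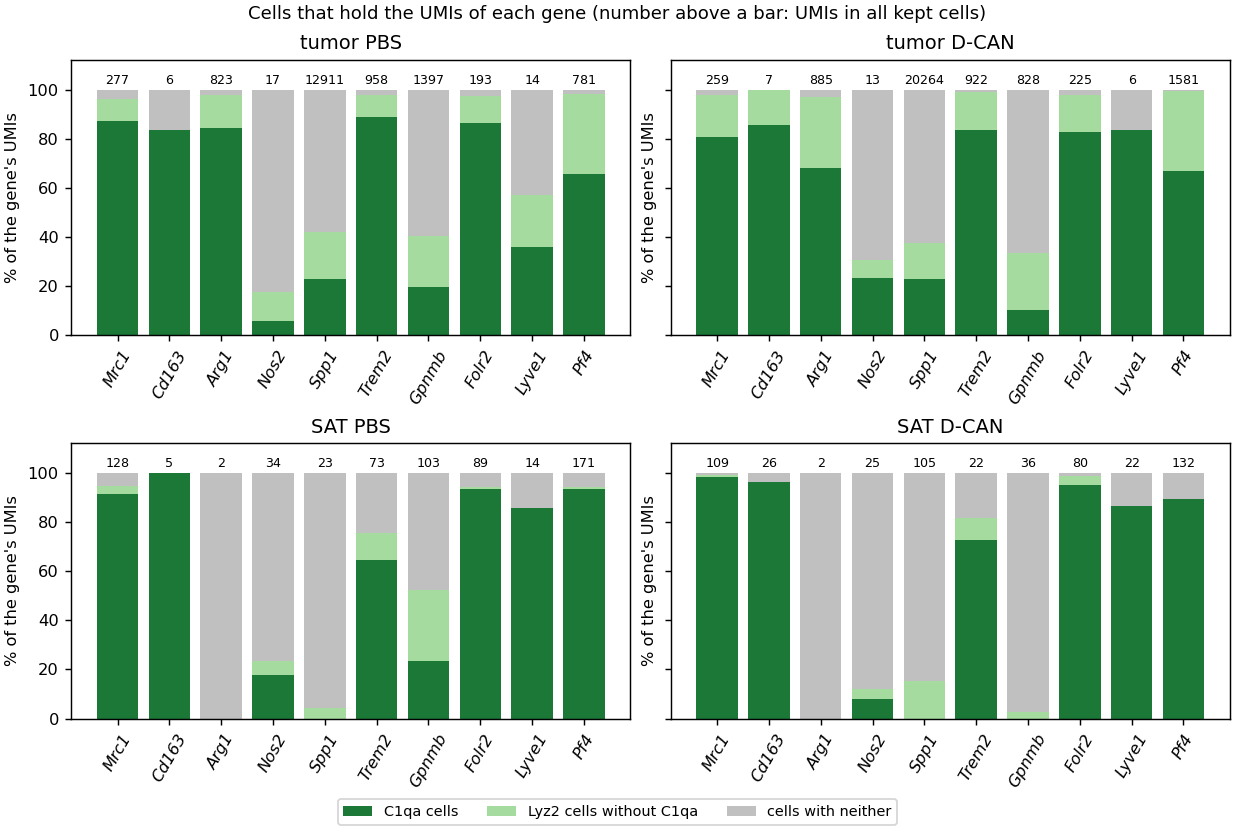
Percent of each gene's UMIs (y axis) in gated cells with C1qa, in gated cells with Lyz2 alone, and in all remaining kept cells, per library; the number above a bar is the gene's UMIs in all kept cells. In the tumors the bars of Mrc1, Arg1, Trem2, Folr2 and Pf4 are nearly filled by gated cells, while most of Spp1, Gpnmb and Nos2 lies in cells with neither gate gene.

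Counted together, 5 of the 8 members with at least 20 UMIs were past 2-fold between tumor and SAT with PBS (2 higher in tumor, 3 lower) and 8 of 9 with D-CAN (4 higher, 4 lower). The same was true of 19.4% (higher) and 24.4% (lower) of all genes tested with PBS and of 22.7% and 22.5% with D-CAN. A gene with few UMIs in 1 tissue passed the minimum of 20 through the tissue where it was high, so the counts are a description. Arg1 and Spp1 were higher, and Mrc1, Folr2 and Lyve1 lower, under both treatments, as were 14.4% (higher) and 16.9% (lower) of the genes tested under both. Scaling by the median ratio of genes in place of the total moved all tumor over SAT log2 ratios up by 0.41 (PBS) and 0.32 (D-CAN), and it moved the share of genes past 2-fold that were higher in tumor from 44.3% to 63.2% and from 50.2% to 64.2%. Under that scaling Trem2 also passed 2-fold with PBS (6 members in place of 5), and with D-CAN Pf4 passed (1.28) while Folr2 did not (-0.98).

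The count, though not each member behind it, held in C1qa cells and less well without other-lineage cells. In C1qa cells 2 members were higher and 3 lower of 7 tested with PBS (19.4% and 21.1% of genes), and 4 and 4 of 9 with D-CAN (24.1% and 24.4%). With PBS the 3 lower ones there were Mrc1, Folr2 and Pf4, and Lyve1 had under 20 UMIs. Among cells with at most 1 marker of each other list, 3 were higher and 2 lower of 7 with PBS (19.0% and 14.2%), and 5 higher and 0 lower of 7 with D-CAN (23.6% and 14.0%). Mrc1 and Folr2 were the 2 that no longer passed there, and Lyve1 and Cd163 had under 20 UMIs. In C1qa cells with at most 1 such marker, a set chosen after seeing the data, Mrc1 was at -2.05 and -2.02 and Folr2 at -2.11 and -1.80. This set held only 40 cells in SAT PBS and 14 in SAT D-CAN. Those 14 cells held 41 Mrc1 and 29 Folr2 UMIs. There 2 members were higher and 3 lower of 7 with PBS (17.0% and 13.3%), and 4 and 2 of 7 with D-CAN (27.1% and 18.9%). Gpnmb, 1 of these 4, had 42 UMIs in tumor and 0 in SAT. Its call rests on the 0.5 added UMI, since against a floor of 3 UMIs its log2 ratio was -0.53.

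**Figure D3:**
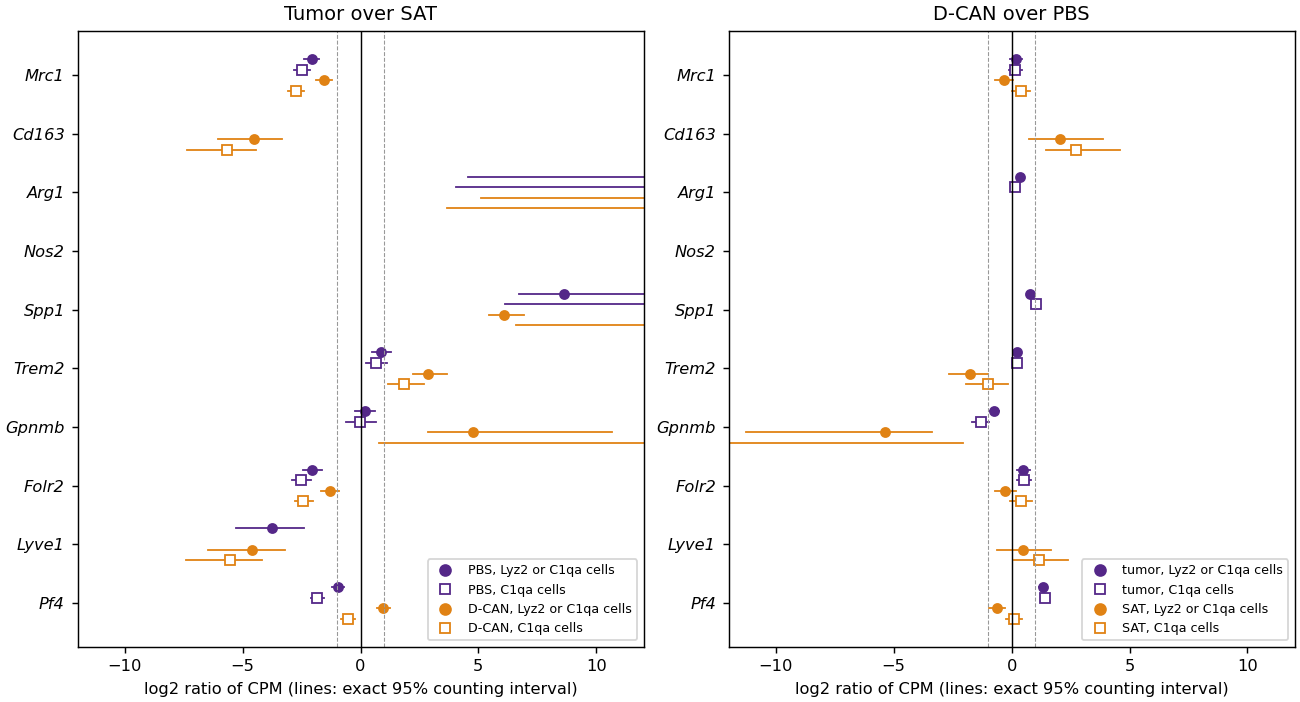
Log2 ratio of CPM, tumor over SAT (left) and D-CAN over PBS (right), for gated cells (filled circles) and gated C1qa cells (open squares), with exact 95% counting intervals as lines; genes with under 20 UMIs over the pair are left out, a line without a symbol has 0 UMIs on 1 side, and dashed lines mark 2-fold. Mrc1 and Folr2 lie left of -1 and Spp1 and Arg1 far right in the left panel, and Pf4 of tumor and Cd163 of SAT are the circles past 1 in the right panel.

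Genes of related programs are given by their counts. Retnla and Mgl2 stand in the lists both of resident macrophages and of alternative activation. Of 18 other genes of resident macrophages, 17 were past 2-fold lower in tumor with PBS and 16 with D-CAN, beside 24.4% and 22.5% of all genes, with none higher and medians of -3.36 and -3.02. Timd4, a receptor for dying cells, stood at 0.459 and 1.48 CPM in tumor and 46.6 and 118 in SAT, and the lectins Cd209b and Cd209f at log2 -6.24 and -5.53 with PBS. Without cells that held 2 markers of another lineage, 16 of 17 tested were lower with PBS but 9 of 18 with D-CAN (14.2% and 14.0% of genes).
Of genes of alternative activation, 8 of 11 tested were lower in tumor with PBS and 10 of 12 with D-CAN (24.4% and 22.5% of all genes), and 6 of 10 and 6 of 9 without other-lineage cells (14.2% and 14.0%). They included Retnla, a product of interleukin-4 signaling (43.9 and 35.7 CPM in tumor, 1000 and 1456 in SAT), and Ccl22, a chemokine that draws regulatory T cells (log2 -5.99 and -4.96). Arg1, a classical gene of that program that the list leaves out, was higher in tumor.
Of genes of inflammatory activation, 12 of 14 tested were lower in tumor with PBS and 11 of 14 with D-CAN (24.4% and 22.5% of all genes), and 9 and 8 of 14 without other-lineage cells (14.2% and 14.0%). Il1b was at 11.3 and 20.3 CPM in tumor and 114 and 403 in SAT, and Tnf at log2 -2.74 and -2.57. Neutrophil markers were also higher in the SAT gates, as given above, and their part was not tested. Outside the gate SAT held 667 T and 633 B cells of 2841 kept cells with PBS, and 677 and 605 of 1897 with D-CAN. Which part of the SAT sample the gated cells with Timd4, the lectins or Ccl22 came from was not tested.

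Genes of lipid-associated macrophages and lysosomes did not go one way. Of 18, 3 were past 2-fold higher and 7 lower in tumor with PBS (19.4% and 24.4% of all genes), and 8 higher and 2 lower with D-CAN (22.7% and 22.5%). Without other-lineage cells 3 were higher and 4 lower with PBS (19.0% and 14.2%) and 12 higher and 0 lower with D-CAN (23.6% and 14.0%), at medians of -0.15 and 1.51. Mmp12, the macrophage elastase, was higher under both (log2 1.04 and 5.50, on 23 UMIs and 1 UMI in SAT), whereas Fabp4 and Lpl, which adipose cells also make, were lower (Fabp4 -5.54 and -4.46, Lpl -4.67 and -2.33). Without other-lineage cells Fabp4 and Lpl were lower with PBS (-3.65 and -4.17) but not past 2-fold with D-CAN (-0.39 and 0.96). Between treatments none of its 18 genes was past 2-fold in the tumors and 11 of 18 were lower in SAT D-CAN than in SAT PBS (median -1.10), beside 1.20% (higher) and 1.45% (lower) of all genes in the tumors and 5.73% (lower) in SAT. This SAT count is of the whole gate, which held 30.7% C1qa cells with PBS and 18.3% with D-CAN. Macrophage markers there were at 1579 and 952 CPM and neutrophil markers at 6329 and 15689 CPM. The part of this make-up in the count was not tested.

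Between treatments a smaller share of genes was past 2-fold in the tumors than in SAT. The SAT gates were also shallower, at 708173 (PBS) and 796166 (D-CAN) UMIs against 6532744 and 5409813 in the tumors. The part of this depth in the larger SAT share was not tested. In the tumors 1 of the 7 members with enough UMIs was past 2-fold, Pf4 at log2 1.31 (1.18 to 1.43), against 1.20% (higher) and 1.45% (lower) of all genes. Spp1 was at 0.77 (0.72 to 0.82), Folr2 at 0.50, Arg1 at 0.36, Trem2 at 0.24 and Mrc1 at 0.20 (-0.05 to 0.45), and Gpnmb at -0.75 (-0.96 to -0.54). Pf4 stayed at 1.23 without the top cell of each library and at 1.40 in C1qa cells. Spp1 (1.03) and Gpnmb (-1.31) also passed 2-fold in C1qa cells, where 1.87% of genes were higher and 1.19% lower. Without other-lineage cells Pf4 was higher and Gpnmb lower (1.02% and 1.68% of genes), likewise among the C1qa cells of that kind (1.47% and 1.46%). At 1000 UMIs per cell Pf4 was seen in 12.6% of gated cells of tumor PBS (10.6% to 15.0%) and 19.9% of tumor D-CAN (16.6% to 23.5%), and Mrc1 in 7.18% and 10.2%, whose intervals overlap. Unthinned the shares were 16.5% and 26.2% for Pf4 and 13.6% and 19.1% for Mrc1. Cd36, a fatty acid receptor and 1 of the 18 listed resident genes, was at 19.4 CPM in tumor PBS and 64.3 in tumor D-CAN. It was chosen here after its value was seen, outside the naming rule, so it does not stand for that list.

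In SAT 3 of 7 members were past 2-fold between treatments, Cd163 higher with D-CAN at log2 2.04 (0.74 to 3.89) and Trem2 and Gpnmb lower at -1.75 (-2.64 to -0.99) and -5.35 (-11.25 to -3.38), beside 4.35% (higher) and 5.73% (lower) of all genes. Mrc1 (-0.33), Folr2 (-0.26) and Lyve1 (0.47) had intervals that held 0, and Pf4 was at -0.62 (-0.97 to -0.27). These values turned on which cells were taken. In C1qa cells Mrc1 and Folr2 were both at 0.41 and Pf4 at 0.10, with Cd163 and Lyve1 higher and Gpnmb lower past 2-fold (9.36% and 9.36% of genes). In cells with at most 1 marker of each other list all 5 members tested were lower, Mrc1 at -1.50, Folr2 at -1.38, Pf4 at -1.89, Trem2 at -3.84 and Gpnmb at 0 UMIs against 47 (5.99% and 7.98% of genes). In these cells macrophage markers were at 3284 CPM in SAT PBS and 1314 in SAT D-CAN. Neutrophil markers were at 15610 and 34350 CPM, and the part of this make-up was not tested. Cd163 had 8 UMIs in SAT D-CAN and 5 in SAT PBS in the same cells, too few for a call. Among C1qa cells with at most 1 marker of each other list 0 were higher and 2 lower of 5 (6.81% and 14.3%). The 24 C1qa cells of SAT D-CAN had a median of 4383 UMIs and the 69 of SAT PBS 1336, and SAT D-CAN was processed with another version of the authors' counting software (3.0.2 in its header, 3.1.0 in the other 3).

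Co-expression was read after every cell was thinned to 1000 UMIs, as the number of cells with both genes over the number that the product of the single shares gives. The whole gate holds cells of other lineages too, as given above, and most pairs had lower ratios in the restricted cells. The resident pair was above the product in the 3 libraries where it could be read. Mrc1 and Folr2 were found together in 15 gated cells of tumor PBS (3.88 by the product, ratio 3.87), 11 of tumor D-CAN (ratio 2.29) and 12 of SAT PBS (ratio 7.38). In SAT PBS 12 of the 13 Folr2 cells held Mrc1. Among C1qa cells with at most 1 marker of each other list, the ratios were 1.89, 1.38 and 1.92. There Folr2 was in 23.3% of Mrc1 cells of tumor PBS (13.4% to 36.0%) against 10.4% of cells without Mrc1, and in 76.9% of those of SAT PBS (lower bound 46.2%) against 0%. In SAT PBS this set held only 40 cells before thinning. In tumor D-CAN it was in 22.0% (10.6% to 37.6%), an interval that holds the 14.7% of cells without Mrc1. Pf4 was above the product with the same 2 genes in the tumors, with Folr2 at 1.86 and 1.59 and with Mrc1 at 1.94 and 1.29. These ratios are given without intervals, and for Pf4 with Mrc1 in tumor D-CAN, the lowest of them, no direction was read.

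In the same restricted tumor cells (405 of PBS and 258 of D-CAN), Arg1 was found with Spp1 and with Trem2 above the product in both libraries. Arg1 and Spp1 shared 62 and 28 cells (ratios 1.53 and 1.38), so that 64.6% and 51.9% of Arg1 cells held Spp1, against 35.3% and 33.8% of cells without Arg1. Arg1 and Trem2 shared 66 and 37 cells (1.38 and 1.39). For Mrc1 and Spp1 no direction was read. At this depth they were at 19 cells (0.750) and 11 cells (0.714), with Spp1 in 31.7% of Mrc1 cells of PBS (20.3% to 45.0%) against 44.1% of cells without Mrc1, and in 26.8% of D-CAN (14.2% to 42.9%) against 39.6%. Both intervals hold the share without Mrc1, and at 2000 UMIs per cell the ratio was 1.15 with PBS and 0.901 with D-CAN. Mrc1 and Arg1 did not repeat, at 0.633 in tumor PBS (9 cells) and 1.40 in tumor D-CAN (12 cells). All these pair counts are small. Of the 21 and 7 cells with Gpnmb among them, 10 (2.01) and 5 (3.41) held Arg1, and 1 in each library held Mrc1. In all C1qa cells at 1000 UMIs (tumor PBS, then D-CAN), Trem2 stood at 1.86 and 1.25 with Folr2. It stood at 1.35 and 1.43 with Pf4 and at 1.38 and 1.34 with Mrc1. Arg1 stood there at 1.71 and 1.23 with Folr2, 1.61 and 1.57 with Pf4 and 0.857 and 1.67 with Mrc1. Spp1 stood at 1.02 to 1.28 with Folr2 and Pf4. No separate groups of cells were read from these pairs.

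**Figure D4:**
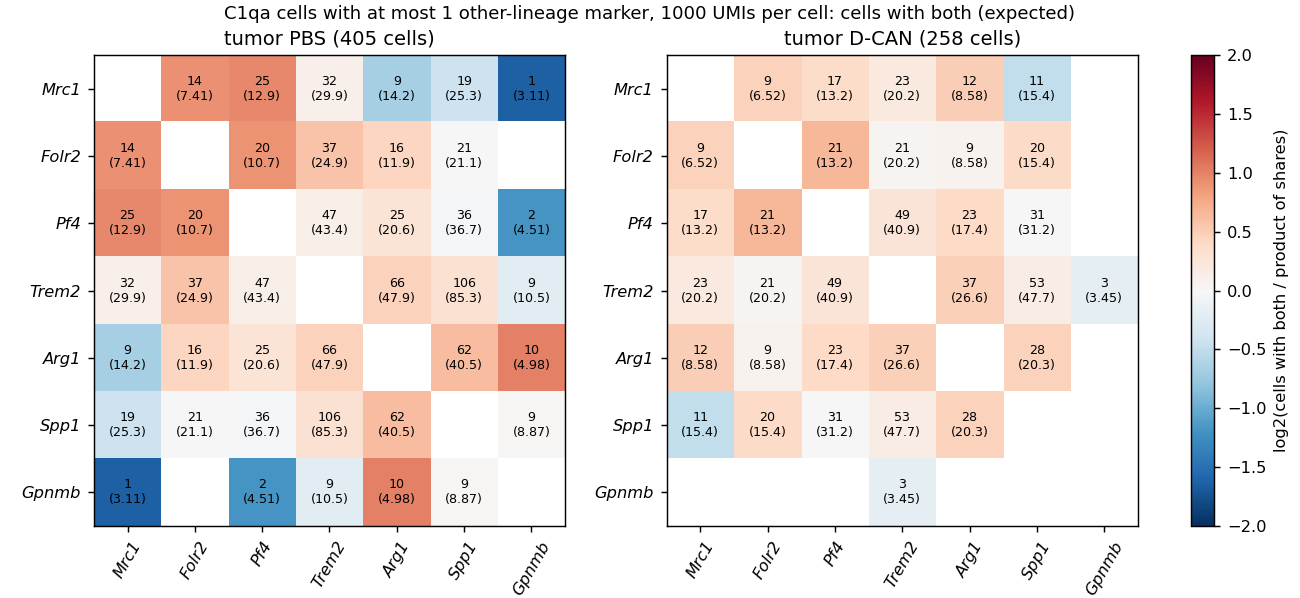
Pairs of genes in C1qa cells with at most 1 marker of each other list, thinned to 1000 UMIs per cell, in tumor PBS (left) and tumor D-CAN (right); each field gives the cells with both genes and, in brackets, the number from the product of the single shares, and its color the log2 of their ratio (pairs with under 3 by the product are blank). The fields among Mrc1, Folr2 and Pf4 and those of Arg1 with Spp1 and Trem2 are red, without setting these genes apart as groups. Mrc1 with Spp1 is blue at this depth but turned with depth in tumor PBS.

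In the whole gate and without thinning, the top 1% of cells held a larger share of the UMIs of most members than of the median gene. In tumor PBS the 12 cells (1%) with most of a gene held 42.4% of Pf4, 37.4% of Gpnmb, 34.8% of Arg1, 34.1% of Spp1, 32.4% of Folr2 and 24.1% of Mrc1, against a median of 20.7% over 10547 genes. In tumor D-CAN the values were near these for Pf4 (42.7%), Gpnmb (42.1%), Spp1 (37.3%) and Arg1 (31.5%), with a median of 18.3%. Trem2 was the most even, at 13.2% with PBS and near the same with D-CAN, and 80.8% and 76.7% of genes were more concentrated than it. These shares turned on depth. At 1000 UMIs per cell the top 1% held 27.8% of Arg1 and 29.2% of Mrc1 in tumor PBS, beside a median of 27.1%, and 24.2% of Pf4 in tumor D-CAN, beside 21.3%. Pf4 of tumor PBS was at 41.4% there and Trem2 at 10.5% and 10.0%. The shares also turned on the cells taken. In unthinned C1qa cells the top 1% held 18.3% and 16.7% of Mrc1 in the tumors (PBS and D-CAN), below medians of 21.1% and 19.0%. Folr2 was at 24.6% and 14.0% there, while Pf4, Gpnmb, Arg1 and Spp1 stayed above both medians. Counted from the cell with most Spp1 downwards, as many Spp1 UMIs as in all the rest lay in 31 of the 563 positive cells of tumor PBS and in 14 of 356 of tumor D-CAN.

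The cells behind these shares differed by gene. The top Spp1 cell of tumor PBS held 488 Spp1 UMIs of 5596, with no C1qa UMI, 1 of Lyz2, no macrophage marker and all 5 fibroblast markers. That of tumor D-CAN held 574, with 1 C1qa UMI, none of Lyz2 and again 5 fibroblast markers. These cells were gated as myeloid by a single UMI. The top Arg1 cells were of another kind, with 35 Arg1 UMIs beside 89 of C1qa and 7 of 8 macrophage markers in tumor PBS, and 87 beside 151 of Lyz2 and 6 markers in tumor D-CAN. The top Gpnmb cell of tumor D-CAN held 26060 UMIs, no macrophage marker and 2 epithelial ones, whereas that of tumor PBS held 180 UMIs of Lyz2 and 3 macrophage markers.
The 12 top Pf4 cells of tumor PBS held at least 14 Pf4 UMIs each, 6 of them without C1qa and none with markers of another lineage. The top one of tumor D-CAN, with 187 Pf4 UMIs, held 165 of Lyz2, 1 of C1qa and 6 macrophage markers.

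In SAT single cells set the level of some members. The cell of 13552 UMIs in SAT PBS was the top cell for Trem2 (30 of 55), Mrc1 (19 of 121) and Gpnmb (15 of 54), with 245 Lyz2 UMIs, 7 macrophage markers and none of another lineage. In SAT D-CAN a cell of 33478 UMIs held 29 of 79 Folr2 UMIs, 36 of 118 Pf4 and 7 of 25 Cd163, with 8 macrophage markers but also 4 of B cells and 4 of endothelium. Mrc1 there was led by a cell of 21081 UMIs with 28 of 108, with 6 macrophage markers but also 4 of B cells and 1 of endothelium. The 1% of cells with most of a gene are 3 and 2 cells in these libraries, and they held 40.5% to 69.1% and 38.9% to 52.0% of the members with at least 20 UMIs, beside medians of 24.7% and 17.9% over all genes. Among C1qa cells of SAT PBS the top cell held 16.2% of Mrc1 and 14.5% of Folr2, below a median of 17.2%. Pf4 (21.2%), Gpnmb (62.5%) and Trem2 (63.8%) were above it.

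**Figure D5:**
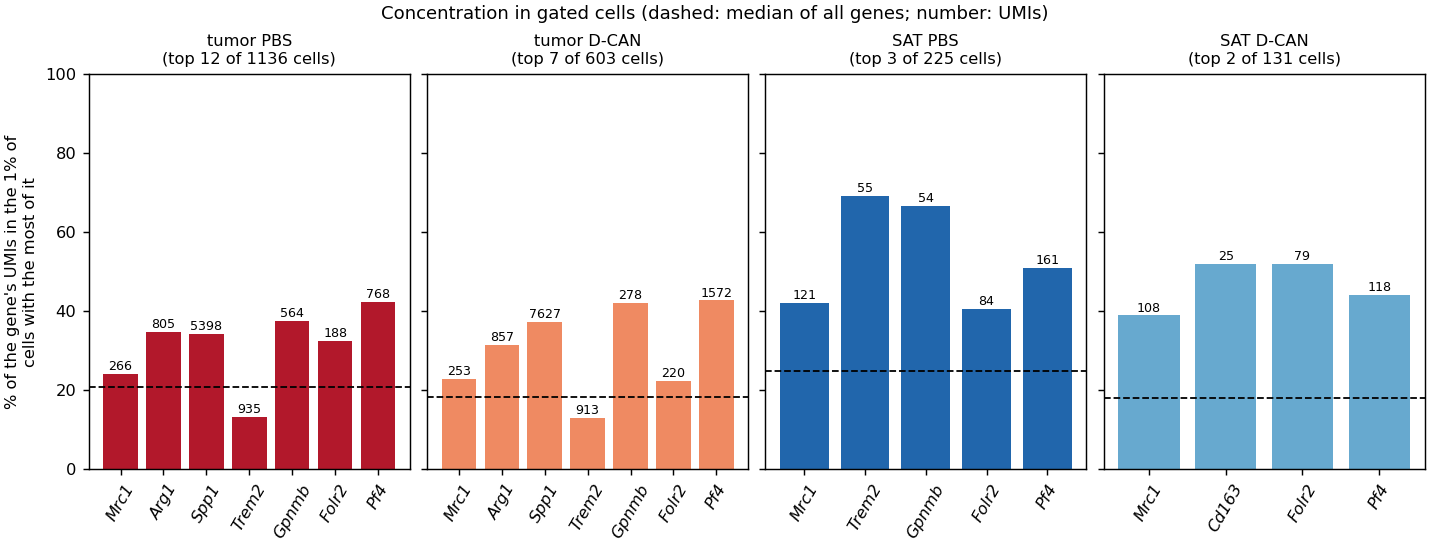
Percent of a gene's gated UMIs (y axis, from 0) in the 1% of gated cells that hold most of it, per library, for members with at least 20 UMIs; the dashed line is the median of all such genes and the number above a bar the gene's UMIs. All bars but those of Trem2 in the 2 tumors lie above the dashed line.

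The genes most like each member across gated cells were named by the mean Pearson correlation of log-scaled counts within the 2 libraries of a tissue, as a description. In the tumors (1136 and 603 cells) Trem2 was most like Apoe (0.69), Ms4a7 and Ctss, genes of macrophages at large. Arg1 was most like Srgn (0.51), Lgals3 and Adam8, and Spp1 like Lgals1 (0.38), Lgals3 and Arg1. Mrc1 was nearest to Selenop (0.39), Ccl8 and Ctsb, Folr2 to Ctsb (0.37), Wfdc17 and Ccl8, and Pf4 to Ctsb (0.46), Ftl1 and Lgmn. Gpnmb was most like Klk1b16 (0.30) and Klk1b21, glandular kallikreins, and Psca, the prostate stem cell antigen. In SAT (225 and 131 cells) Mrc1 and Folr2 were each among the nearest to the other (0.74), with Pf4 and F13a1, and Pf4 was nearest to C1qb (0.74), Mrc1 and Pmp22. Trem2 of SAT was nearest to Scamp5 (0.53) and Pdgfc (0.52), whose correlations were 0.28 and 0.15 with PBS and 0.78 and 0.89 with D-CAN, where 5 cells held Trem2. All these correlations share library, depth and the mixture of cells in the gate.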

How the data were processed

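Single-cell libraries were prepared by the authors with 10x chemistry that reads the 3′ end, and the deposited matrices hold raw UMI counts per gene and cell. The submitters' processing notes name Cell Ranger 3.1.0 and STAR 2.6, with mouse build mm10 (GRCm38) and Ensembl 93 annotation, and the header of SAT D-CAN names Cell Ranger 3.0.2. Depth was 17996284 (tumor PBS), 15672787 (tumor D-CAN), 6667064 (SAT PBS) and 7444729 (SAT D-CAN) UMIs over 2830, 1525, 2851 and 1922 barcodes. Barcodes with at least 200 genes were kept, as 2761, 1487, 2841 and 1897 cells. No doublet caller was run and no doublet was removed, and cells with markers of several lineages were handled by the restricted sets.

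UMIs were summed per library over gated cells and given as CPM. Log2 ratios carry 0.5 added UMI and were called past 2-fold for genes with at least 20 UMIs over the pair. Fold values against 0 use a floor of 3 UMIs per library and lie above the exact lower limits. Intervals are exact Poisson, Clopper-Pearson or conditional binomial. Co-expression was read at 1000 UMIs per cell, which left out 203, 64, 81 and 7 gated cells. Shares were given at that depth, without thinning, or both. No test between conditions was run, as each group has 1 library. All 10 members were described. From each list up to 3 genes were named, those with the largest mean log2 ratio among genes past 2-fold the same way in both tissue contrasts, and for likeness the 3 genes with the highest mean correlation among genes in at least 2% of gated cells of both libraries. The members and lists were chosen with earlier results of these data known. Alternatives were other gates, cell filters, scaling, UMI minimums, thinning depths and leaving out top cells. The scripts were checked on simulated data and ran in Python 3.11.15 with numpy 2.4.6 and scipy 1.17.1. Promoters came from RefSeq (GRCm38.p6). One marker of the macrophage list is not reported here, and the list was used without it.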

Additional observations from a re-analysis of the deposited data

Results flagged for a closer look

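Pf4 and Trem2 went opposite ways with D-CAN in tumor and in SAT, with counting intervals that left out 0 in both tissues. The difference between tissues was not tested, as each group has 1 library. Pf4 was at log2 1.31 (D-CAN over PBS) in tumor and -0.62 in SAT. The SAT value was 0.10 in C1qa cells and -1.89 in cells with at most 1 marker of each other list, so the opposite sign is not seen in C1qa cells. Trem2 was at 0.24 in tumor and -1.75 in SAT. In SAT the Trem2 UMIs of 1 cell were 54.5% (PBS) and 66.7% (D-CAN) of the gated total, and the tumor value was -0.00 in cells with at most 1 marker of each other list.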

How the results depend on the processing

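No paired analysis was possible because each group has 1 library and the labels carry no replicate numbers. Of 8 counts past 2-fold (members and genes in 4 contrasts), all kept within 1.5 times under median-ratio scaling, 1 added UMI, 500 genes per cell and at most 20% mitochondrial UMIs. The main counts of members were 5 and 8 (tumor over SAT, PBS and D-CAN), 1 (D-CAN over PBS, tumor) and 3 (SAT), and those of genes 4865, 4921, 307 and 751. Requiring 3 UMIs of Lyz2 and C1qa gave 1591 and 2167 genes between tissues. Without cells with 2 or more other-lineage markers there were 2880 and 3226 genes between tissues, and 5 members (tumor over SAT, D-CAN), 2 (tumor) and 5 (SAT) between treatments. C1qa cells gave 3 members in tumor between treatments. C1qa cells with at most 1 other-lineage marker, an alternative chosen after seeing the data, gave 2094 and 3021 genes between tissues, 263 in SAT, and 2 members in tumor. A minimum of 50 UMIs gave 103 (tumor) and 257 (SAT) genes, and no minimum gave 8768, 8715, 3272 and 4581 genes and 5 members in SAT. Fewer genes are tested under the higher minimum and in smaller cell sets, and other causes were not tested. One called ratio reversed, Folr2 of tumor over SAT with D-CAN, at 0.02 without other-lineage cells. Over all settings Arg1 and Spp1 of tumor over SAT kept their sign, at or above 5.88 and 5.49 on the log2 scale. Mrc1 was at or below -1.02 with PBS. With D-CAN it came to -0.08 (-0.54 to 0.45) without other-lineage cells, where no direction was read, and it was past 2-fold in 10 of 12 settings. SAT depth limits Cd163, Lyve1, Nos2, Gpnmb, Trem2, Spp1 and Arg1, which had under 60 gated UMIs per library there. For Arg1 and Spp1 it limits the size of the ratios, with 0 gated UMIs of Arg1 in both SAT libraries and 1 and 16 of Spp1.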
